A study of Mus musculus with 3 samples.

Results

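Of 12413 regions of open chromatin mapped in the mouse uterus on gestation day 4, 1327 had their centre within 1 kb of annotated ends of 2 or more different protein-coding genes. These shared peaks made up 10.7% of the list. They made up 14.8% (95% Wilson interval 14.1 to 15.5) of the 8972 peaks at the end of any protein-coding gene. The other 7645 gene-end peaks lay within 1 kb of exactly 1 such gene and are called single peaks here. The remaining 3441 peaks lay farther away. Gene positions were those of RefSeq (GRCm38.p6), and a gene end means either its start or its far end. Ends of 2 genes met at 1304 of the shared peaks and ends of 3 genes at 23. None of the shared peaks lay at the ends of 4 or more genes.

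The map came from FAIRE-seq, in which crosslinked chromatin is sheared and DNA free of bound protein is recovered by phenol-chloroform extraction. The whole uterus was taken from untreated wild-type C57BL/6J females, 6 to 10 weeks old, made pregnant by fertile males, and 3 DNA samples form the only group. A sample used 100 mg of frozen tissue, crosslinked for 9 min in 1% formaldehyde and sheared to about 300 bp. Epithelium, stroma, muscle, vessels and immune cells were mixed in it, so open chromatin in few cells and weakly open chromatin in many cells cannot be told apart. Of 22 marker genes of these cell types, 12 had a gene-end peak (3 of 5 for stroma, 3 of 5 for epithelium, 2 of 4 for smooth muscle, 1 of 4 for endothelium and 3 of 4 for immune cells). That is 54.5% (95% Wilson interval 34.7 to 73.1), near the 43.4% of all protein-coding genes, so the count says little about these cell types. The immune marker peak at Cd4, which marks helper T cells, was itself a shared peak. It was 5.32-fold enriched and lay nearer to Gpr162, a receptor gene (425.5 bp), than to Cd4 (923.5 bp). The analysed table does not name its samples and library depth is unknown. No value below therefore has an error between mice, and no test was made. Intervals cover the counting of peaks or genes in this list only.

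Many mammalian genes lie head-to-head with a neighbour, so that transcription leaves a common stretch of DNA in opposite directions. Such a bidirectional promoter is often rich in CpG dinucleotides and poor in TATA boxes, and it is common among genes for DNA repair, mitochondria and protein synthesis. A peak in such a place cannot be credited to either gene alone. Genes may also meet head-to-tail, where the start of a gene lies beside the far end of the next, or tail-to-tail.

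Promoters of 4 such pairs are shown first, from the RefSeq promoter table (GRCm38.p6, 250 bases before to 50 after the start, 5′ to 3′ on the strand of the gene). Capitals mark the 7 motifs searched on both strands: CCAAT (the CCAAT box), GGGCGG (the GC box of Sp and Klf factors), CCGGAAG (ETS factors), GCATGCGC (the core of the NRF1 motif), AAGATGGC (YY1), TGACGTCA (the cyclic AMP response element) and TATAAA (the TATA box). Matches describe letters, not bound sites. The strongest shared peak (14.8-fold) covered 297 bases of the promoter of Sympk, which encodes a scaffold of the mRNA polyadenylation machinery (chr7:19024127-19024426, plus strand). It covered none of the promoter of Foxa3, a forkhead transcription factor gene (chr7:19023490-19023789, minus strand). Both windows held GC boxes, and a CCAAT box and a TATA box appeared only in that of Foxa3.
Sympk: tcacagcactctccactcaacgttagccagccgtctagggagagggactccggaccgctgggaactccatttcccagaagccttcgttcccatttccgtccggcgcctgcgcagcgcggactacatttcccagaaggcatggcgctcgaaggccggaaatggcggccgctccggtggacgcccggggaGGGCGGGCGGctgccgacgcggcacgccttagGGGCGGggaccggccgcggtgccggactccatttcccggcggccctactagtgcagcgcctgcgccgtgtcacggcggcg
Foxa3: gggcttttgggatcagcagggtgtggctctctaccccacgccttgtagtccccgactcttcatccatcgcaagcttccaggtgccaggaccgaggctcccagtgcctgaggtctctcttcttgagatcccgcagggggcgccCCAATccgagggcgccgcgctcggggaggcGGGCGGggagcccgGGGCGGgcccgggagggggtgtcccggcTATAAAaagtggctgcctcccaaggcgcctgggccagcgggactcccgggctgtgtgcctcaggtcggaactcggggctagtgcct
The second strongest shared peak (14.6-fold) covered both promoters of G3bp2, a stress granule protein gene (chr5:92137676-92137975, minus strand), and Uso1, a Golgi vesicle tether gene (chr5:92137688-92137987, plus strand). Their windows have 288 bases in common. The NRF1 core, found on both strands at overlapping bases, was the only one of the 7 motifs in them.
G3bp2: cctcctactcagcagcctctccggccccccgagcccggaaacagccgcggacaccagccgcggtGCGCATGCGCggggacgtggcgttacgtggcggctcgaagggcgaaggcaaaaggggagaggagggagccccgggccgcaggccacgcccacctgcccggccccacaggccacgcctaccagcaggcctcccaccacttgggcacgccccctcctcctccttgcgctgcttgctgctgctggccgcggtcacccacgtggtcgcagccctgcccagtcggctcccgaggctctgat
Uso1: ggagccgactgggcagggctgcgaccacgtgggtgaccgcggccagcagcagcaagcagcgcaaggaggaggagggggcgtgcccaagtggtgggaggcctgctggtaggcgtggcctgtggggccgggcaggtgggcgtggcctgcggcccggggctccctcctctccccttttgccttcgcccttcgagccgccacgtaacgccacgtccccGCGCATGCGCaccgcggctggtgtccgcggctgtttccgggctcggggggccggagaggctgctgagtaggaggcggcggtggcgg
The mitochondrial chaperonin genes Hspe1 (chr1:55087898-55088197, plus strand) and Hspd1 (chr1:55088194-55088493, minus strand) are a textbook bidirectional pair. Their peak (11.6-fold) covered 300 bases of the Hspe1 window and 263 of the Hspd1 window. ETS matches on both strands stood in the first, and GC boxes in both.
Hspe1: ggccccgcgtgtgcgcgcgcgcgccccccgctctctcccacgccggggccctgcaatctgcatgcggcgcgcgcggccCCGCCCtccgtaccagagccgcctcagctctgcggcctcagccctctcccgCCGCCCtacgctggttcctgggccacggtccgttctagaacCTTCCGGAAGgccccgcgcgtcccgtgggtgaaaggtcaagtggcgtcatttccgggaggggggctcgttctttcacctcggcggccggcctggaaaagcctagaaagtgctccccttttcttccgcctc
Hspd1: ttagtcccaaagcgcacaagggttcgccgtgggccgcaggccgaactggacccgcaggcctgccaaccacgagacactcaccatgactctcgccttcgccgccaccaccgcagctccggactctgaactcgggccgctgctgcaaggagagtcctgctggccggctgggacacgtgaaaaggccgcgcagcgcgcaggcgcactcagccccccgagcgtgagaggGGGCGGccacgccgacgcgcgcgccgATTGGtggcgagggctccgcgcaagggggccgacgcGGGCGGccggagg
Atm, the kinase that answers DNA breaks (chr9:53536622-53536921, minus strand), and Npat, the coactivator of histone gene transcription (chr9:53536797-53537096, plus strand), have 125 bases of their windows in common. Their peak (7.48-fold) covered 296 bases of the first window and 288 of the second. The starts of these windows lie 157 bp (Atm) and 158 bp (Npat) inside the annotated gene ends from which peaks and gaps were measured. That of the Uso1 window lies 29 bp inside. A CCAAT box and a GC box stood in both windows, each at the same bases within the common stretch. A further CCAAT box stood only in the window of Npat, and matches to the ETS, NRF1 and TATA motifs only in that of Atm.
Atm: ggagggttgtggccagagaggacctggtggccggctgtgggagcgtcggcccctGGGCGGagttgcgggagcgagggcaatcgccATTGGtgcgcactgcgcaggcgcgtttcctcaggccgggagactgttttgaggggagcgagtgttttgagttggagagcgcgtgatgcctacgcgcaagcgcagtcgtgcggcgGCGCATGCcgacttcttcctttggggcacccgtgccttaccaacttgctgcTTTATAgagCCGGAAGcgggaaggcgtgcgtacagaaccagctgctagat
Npat: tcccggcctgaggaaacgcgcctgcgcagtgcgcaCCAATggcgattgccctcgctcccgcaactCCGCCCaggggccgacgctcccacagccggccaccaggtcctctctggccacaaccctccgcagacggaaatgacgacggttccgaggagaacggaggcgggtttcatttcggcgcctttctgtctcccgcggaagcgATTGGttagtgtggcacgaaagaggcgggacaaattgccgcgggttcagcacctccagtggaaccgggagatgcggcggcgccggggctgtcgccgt

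Shared peaks lay mostly at head-to-head gene pairs. The strand of both genes was known for 1010 of the shared peaks (76.1%). Head-to-head starts accounted for 761 of these (75.3%, 95% Wilson interval 72.6 to 77.9). In 476 the starts lay apart, with neither of the 2 genes annotated between them (median gap 100 bp). In the other 285 the annotated genes overlapped at their starts (median 278 bp between starts). Head-to-tail pairs accounted for 225 (22.3%), and the centre was nearer to the start than to the far end in 203 of them (90.2%, 85.6 to 93.5). Tail-to-tail pairs held 5 shared peaks, starts on the same strand 18, and ends on the same strand 1. The centre lay a median of 99 bp from the nearer gene and 307.5 bp from the other. Windows of 500 bp and 2 kb gave head-to-head shares of 83.8% and 64.6%.

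Peaks shared by neighbouring genes were about as strong and as wide as peaks at 1 gene. Their fold enrichment, the authors' ratio of the summit signal to local background, had a median of 5.93 (interquartile range 4.40 to 8.18) and ran from 2.61 to 14.8. Single peaks had a median of 6.11 (4.62 to 8.03). The difference in medians was −0.185, and its limits of −0.472 to 0.0766, taken from the 95% interval of each median, included 0. The sign turned when only the stronger peaks were kept: among the 50% of peaks with the highest fold, shared peaks had a median of 8.11 and single peaks 7.77. That difference of 0.342 also had limits that included 0 (−0.0181 to 0.625), in a set chosen by the fold itself. Shared peaks had the lower median on 14 of 20 chromosomes. Their median width was 443 bp (327 to 585.5) against 454 bp (329 to 610), a difference of −11 bp with limits of −28 to 4. Median pileup, the coverage at the summit, was 58 in both classes. Peaks away from gene ends were weaker and narrower, with medians of 5.12-fold and 360 bp.

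Head-to-tail peaks were narrower than head-to-head peaks, while median folds differed little between the larger shared classes and their intervals overlapped. Head-to-head peaks at overlapping starts had the highest median fold of the larger shared classes, 6.23 (interval of the median 5.93 to 6.88), and a median width of 487 bp. At starts that lay apart the medians were 5.95-fold (5.50 to 6.29) and 449.5 bp. Head-to-tail peaks were 5.90-fold (5.46 to 6.23) and narrower, at 395 bp (375 to 424). Over all head-to-head peaks the medians were 6.11-fold and 459 bp, beside 6.18-fold and 459 bp at the starts of single genes. This comparison was added after the data were seen. The 109 single peaks at a far end had a median of 4.89-fold. The share of gene-end peaks that were shared was 19.4% (16.9 to 22.1) in the weakest decile by fold (2.21 to 3.82), 12.4% (10.4 to 14.7) in decile 5 and 14.5% (12.3 to 16.9) in the strongest decile (10.1 to 19.97). It ran from 8.00% on chromosome X and 9.17% on chromosome 18 to 20.2% on chromosome 7, 20.5% on chromosome 17 and 20.8% on chromosome 19.

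**Figure D1:**
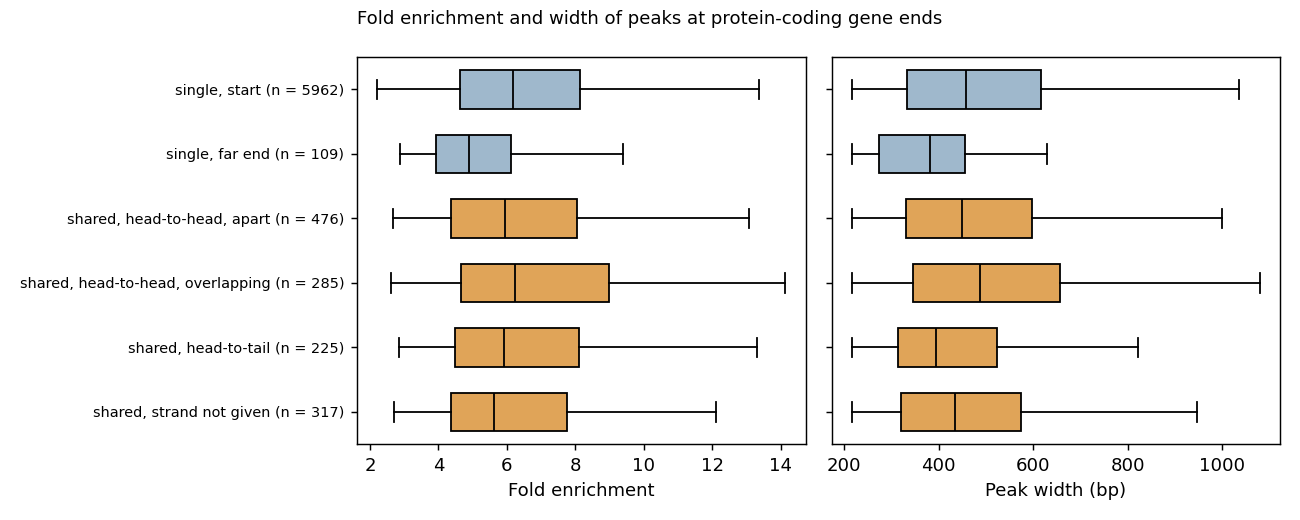
Fold enrichment (left) and width in bp (right) of single peaks (blue) and shared peaks (orange) by kind of gene end. Boxes span the interquartile range with the median as a line, whiskers reach the last value within 1.5 times that range, and values beyond are not drawn. The boxes overlap in every class, and single peaks at a far end have the lowest median fold of the 6 classes drawn (4.89).

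The 10 strongest shared peaks were enriched 13.7-fold to 14.8-fold. The Sympk and Foxa3 peak (chromosome 7, 19024130 to 19024533, 404 bp) had a pileup of 173 over a background of 10.8. Its centre was 45.5 bp from the end of Sympk and 792.5 bp from that of Foxa3. The G3bp2 and Uso1 peak (chromosome 5, 92137584 to 92138034) stood almost midway between starts 184 bp apart, at 84 and 100 bp from them. At 14.2-fold, a head-to-tail peak joined Copg2, a subunit of the vesicle coat COPI, and Tsga13, a testis gene (chromosome 6, 30896492 to 30897056). Its centre lay 41 bp from Copg2 and 207 bp from Tsga13.

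Peaks of 14.1-fold stood at Snap29, a membrane fusion protein gene, with Pi4ka, a phosphatidylinositol kinase gene (chromosome 16, 17405623 to 17406142), and at Aagab, which helps assemble clathrin adaptors, with Iqch (chromosome 9, 63602382 to 63602922). The same fold was measured at Atp6v1b2, a proton pump subunit gene, with Slc18a1, the gene of a vesicular monoamine transporter (chromosome 8, 69088506 to 69088957). There the centre was 4.5 bp from Atp6v1b2 and 506.5 bp from Slc18a1. The peak at Zc3h18 and the predicted gene Gm39270 (13.96-fold) had the highest pileup of all shared peaks, 202. The first 10 ended with Mageb3 and Ctdspl2 (13.8-fold), Fam160a2 and the olfactory channel gene Cnga4 (13.7-fold), and Gpbp1l1 and Tmem69 (13.7-fold).

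At the other end of the range, the weakest shared peak (2.61-fold) lay at 3 genes, Eif4enif1, a translation repressor gene, Gm51877 and Sfi1. Its background of 41.5 was the highest of all shared peaks, and its pileup was 110. The peaks at Dpm1 with Mocs3 (2.67-fold), Agpat1 with Rnf5 (2.69-fold), Pcnx3 with Map3k11 (2.82-fold) and Dusp10 with 1700056E22Rik (2.83-fold) had pileups of 29 to 32 over backgrounds of 9.59 to 10.9. Dpm1 with Mocs3 and Dusp10 with 1700056E22Rik each had another, stronger shared peak (4.76-fold and 5.42-fold). Dpm1 makes the mannose donor of glycosylation, and Map3k11 and Dusp10 belong to MAP kinase signalling. The widest shared peak, 1642 bp and 5.78-fold, lay at Mesd, a chaperone of LDL receptor-related proteins, and Tlnrd1. Widths of 1520 bp at the splicing factor gene Srsf2 with Mfsd11, 1409 bp at Eif4e3 with Gpr27, 1320 bp at Cggbp1 with Zfp654 and 1316 bp at Ubtd1 with Mms19 followed. Their fold ran from 5.69 to 7.98, close to or above the median of shared peaks.

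Starts that had a head-to-head neighbour held a peak far more often than starts that stood alone. Of 1762 starts whose nearest neighbouring end within 1 kb was a head-to-head start, 1354 had a peak centre within 1 kb (76.8%, 95% Wilson interval 74.8 to 78.8). Of 14606 starts with no other gene end within 1 kb, 5518 did (37.8%, 37.0 to 38.6). Both starts of a pair can count the same peak, so the first interval is too narrow. A peak that belongs to 1 start can also count for its neighbour, which can raise the share itself. Lone starts have no such neighbour, and the part of this in the difference was not tested. The order was the same on 19 of 19 chromosomes with strand: head-to-head starts ran from 37.0% on chromosome X, where lone starts held 13.7%, to 89.5% on chromosome 5, where lone starts held 45.2%. It was also the same with a shorter reach: within 250 bp, 57.6% of head-to-head and 27.0% of lone starts had a peak. With predicted and clone-named genes left out, the shares were 77.3% and 40.4%.

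Whether the genes overlapped made little difference to this share, which was 76.7% for starts apart and 77.2% for overlapping starts. For starts that lay apart it was 80.6% at gaps up to 50 bp, between 74.7% and 82.4% at gaps of 51 to 500 bp, and 60.5% (49.6 to 70.4) at wider gaps. A start beside a far end held a peak in 44.0% of 541 cases. Far ends rarely had one: 0.829% of 14846 lone far ends and 2.09% of 1433 tail-to-tail ends did. Far ends beside a start counted one in 40.6% of 559 cases, and the peaks of such pairs mostly lay nearer to the start, as given above. Over all ends, strand known or not, 40.1% of 6272 with a close neighbour and 19.3% of 36774 without one had a peak, a difference of 20.8 percentage points. Close ends can count the same peak here too.

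**Figure D2:**
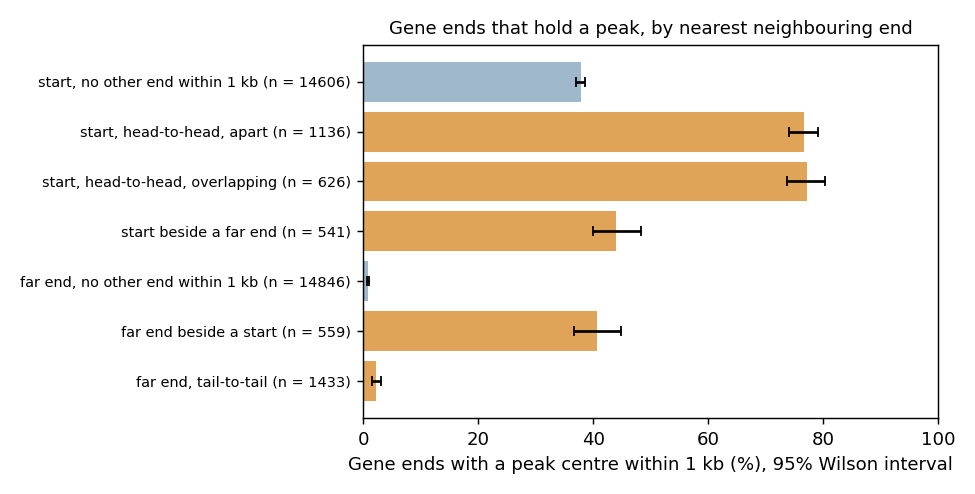
Share of gene starts and far ends (in %) with a peak centre within 1 kb, by the nearest neighbouring gene end (orange, with a neighbour within 1 kb; blue, with none). Error bars are 95% Wilson intervals over ends, and head-to-head starts (76.7% and 77.2%) stand above lone starts (37.8%).

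CpG content went with both the arrangement and the peaks. Starts were put into quintiles by the observed over expected CpG ratio of their 300-base promoter. The highest quintile (ratio of 0.876 or more) held 41.0% of head-to-head starts and 17.3% of lone starts. In that quintile the shares with a peak were close: 86.7% (626 of 722) of head-to-head and 81.1% (2051 of 2529) of lone starts. In the next quintile they were 78.8% and 70.1%, and in the middle quintile 64.6% and 43.5%. The gap was widest where CpG was scarce: 54.2% against 8.62% in the second quintile, and 38.2% (21 of 55, 26.5 to 51.4) against 1.63% (54 of 3305) in the lowest quintile.

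The CpG content of the partner moved with the peaks in the CpG-poor starts. Of 151 head-to-head starts in the lower 2 quintiles, 97 had a partner in the upper 3 quintiles, and 63 of these (64.9%) had a peak. Of the 54 whose partner was also in the lower 2 quintiles, 10 (18.5%) had a peak. The part of CpG content in the difference between head-to-head and lone starts was not tested beyond these shares.

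**Figure D3:**
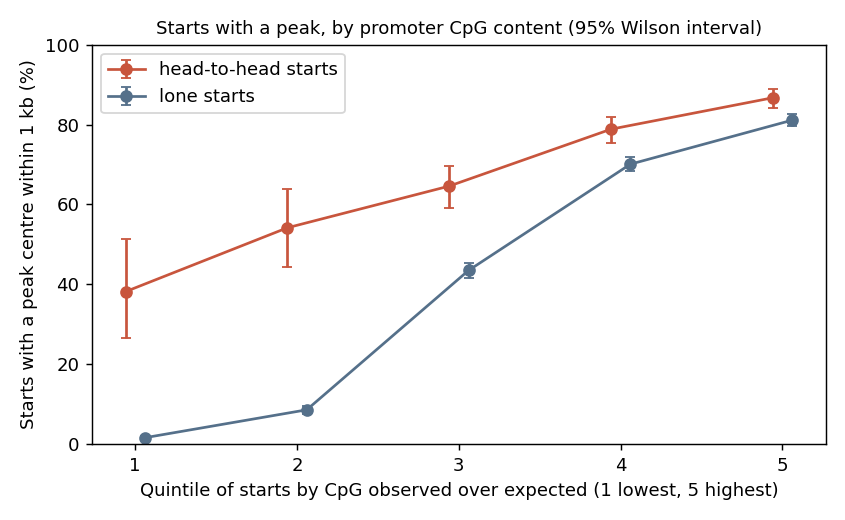
Share of starts (in %) with a peak centre within 1 kb, by quintile of the promoter CpG ratio, for head-to-head starts (red) and lone starts (blue), with 95% Wilson intervals. The shares run from 38.2% and 1.63% in the lowest quintile to 86.7% and 81.1% in the highest.

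Seen by gene pair, the annotation held 889 head-to-head pairs with starts within 1 kb, and 676 of them (76.0%, 73.1 to 78.7) had a shared peak. Most, 614, had 1 shared peak, 57 had 2 and 5 had 3. The other 213 pairs (24.0%) had none, and in 21 of these a peak lay at 1 of the genes only. In 1 more pair without a shared peak, Nol9 with Tas1r1, each gene counted a peak of its own. The median distance between starts was 124.5 bp in pairs with a shared peak and 178 bp in pairs without. Counting all arrangements, 1274 gene pairs met at shared peaks.

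Except at gaps above 500 bp, summits lay more often inside a gene than between the starts, which were a median of 100 bp apart. At the 476 peaks of starts that lay apart, the summit was a median of 44 bp downstream of the nearer start, in the direction of its transcription (interquartile range −7 to 162). It lay between the starts in 139 of them (29.2%, 25.3 to 33.4), and inside one of the genes in 337 (70.8%). At single peaks the summit was a median of 92 bp downstream of the start (−4.75 to 299), and 73.5% lay inside the gene. A summit lay within 100 bp of the nearer start at 64.3% of head-to-head peaks and within 100 bp of the start at 42.6% of single peaks; the former have 2 starts to lie near. The share between the starts was 10.9% at gaps up to 50 bp, 30.9% to 34.2% at gaps of 51 to 300 bp, 46.8% at wider gaps up to 500 bp and 56.5% (13 of 23) above that.

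**Figure D4:**
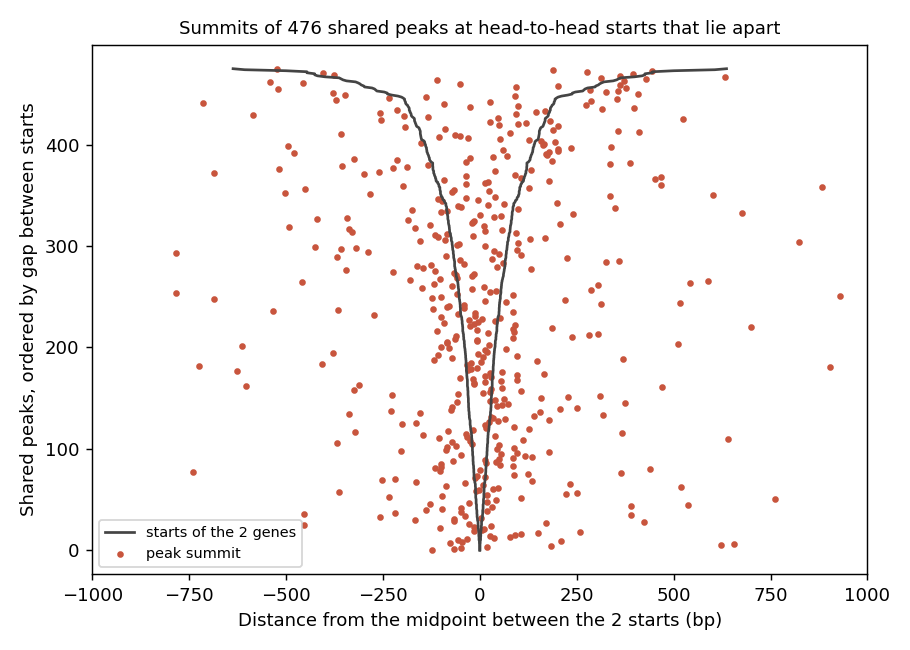
Summit positions (red points) at 476 shared peaks between head-to-head starts that lie apart, with distance in bp from the midpoint between the starts on the horizontal axis and peaks ordered by the gap between starts on the vertical axis. Grey lines mark both starts, and 139 of the summits (29.2%) fall between them.

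A shared peak at starts that lay apart often spanned both of them, and peaks that did had the higher median fold. Of the 476 peaks, 290 (60.9%, 56.5 to 65.2) covered both starts, 100 (21.0%) covered 1 and 86 (18.1%) covered neither. Their median folds were 7.04, 5.09 and 4.56, and their median widths 489.5, 408.5 and 347 bp. The starts of the first class lay close together (median gap 69.5 bp). At overlapping genes, 117 of 285 peaks (41.1%) covered both starts, with a median of 7.35-fold and 563 bp. Of the single peaks at a start, 3923 (65.8%) covered it, with a median of 6.75-fold and 501 bp.

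Some pairs had more than 1 shared peak. This was found at 93 gene pairs, with summits a median of 585 bp apart (interquartile range 452 to 785). Whether 1 of the peaks covered both starts is not given for these pairs. The strongest peak of such a pair had a median of 5.96-fold and the weakest 3.74-fold, a ratio of 1.49. The largest numbers, 3 peaks each, were found at Gpr137 with Bad, a cell death gene, Bbip1 with Shoc2, a RAS pathway scaffold gene, Ccdc92 with Zfp664, Hnrnpa2b1 with Cbx3, Gm36722 with Tshz3, and Cers1 with Gdf1. Hnrnpa2b1 encodes an RNA-binding protein and Cbx3 a heterochromatin protein, and their common region is known as a ubiquitously open element. The peaks at Cers1 and Gdf1 were 16281 bp apart, because these annotated genes meet at more than 1 of their ends.

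Where 3 genes met, the peaks were of usual strength (median 5.84-fold over 23 peaks). The strongest lay at Cab39l, Gm45935 and Setdb2, a histone methyltransferase gene (12.1-fold, chromosome 14, 59440735 to 59441127). Next came Senp3, a SUMO protease gene, with Tnfsfm13 and Tnfsf13 (9.78-fold), and Anxa9, Cers2, a ceramide synthase gene, and LOC115489748 (9.51-fold). Tnfsfm13 is annotated over Tnfsf13 as a joined gene, so these count 1 place under more than 1 gene name. Without predicted and clone-named genes, 1176 shared peaks remained in the count, and with overlapping and nested genes joined, 1243.

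Promoters at shared peaks were as rich in GC as those at single peaks and differed in some motifs. The 1390 genes at head-to-head shared peaks had a median GC content of 64.0% and a CpG ratio of 0.859, and the 5414 genes with a single peak at the start had 64.3% and 0.813. Genes with a head-to-head partner and no peak had 56.3% and 0.712, and lone genes without a peak 49.7% and 0.263. The ETS motif was in 27.6% (25.3 to 30.0) of promoters at head-to-head shared peaks, 16.3% (15.3 to 17.3) at single peaks and 12.1% of all 17274 promoters. The YY1 motif was in 7.84% (6.54 to 9.37), 3.97% (3.48 to 4.52) and 3.23%. It was in 9.93% where the starts lay apart and 4.39% where the genes overlapped.

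TATA and GC boxes were less frequent at head-to-head shared peaks than at single peaks. The TATA box was in 3.38% (2.55 to 4.47) of the former, 5.63% (5.05 to 6.28) of the latter and 13.4% of all promoters, and the GC box in 68.0%, 75.1% and 46.9%. The CCAAT box was in 40.2%, 36.9% and 39.6%, the NRF1 core in 5.61%, 6.32% and 3.64%, and the cyclic AMP response element in 4.10%, 3.60% and 2.36%. The windows of close pairs have bases in common and count them for both genes. With 1 gene from each pair (695 promoters), the ETS share was 27.1% for the start with the lower position and 28.1% for the other. The YY1 shares were 7.91% and 7.77%. Such a window can still hold promoter bases of the partner, so these shares do not settle the comparison with single peaks. Among promoters with a CpG ratio in the upper 2 quintiles, the ETS share was 30.3% at head-to-head shared and 18.4% at single peaks, the YY1 share 8.96% and 4.41%, and the TATA share 2.56% and 5.05%. Splitting the head-to-head peaks at their median fold of 6.11, the GC content was 67.0% in the stronger and 61.5% in the weaker set. The ETS share was 27.0% and 27.6%, and the CCAAT share 36.0% and 44.5%.

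Pairs named as bidirectional from general knowledge gave a mixed picture in this tissue. Ends within 1 kb were annotated for 18 of the 19 pairs, and 10 pairs had a shared peak. That is 20 of the 38 genes (52.6%), beside 11.3% of all 21523 protein-coding genes at a shared peak and 43.4% at any gene-end peak. These pairs were listed as close neighbours, so genes with an annotated head-to-head partner are the nearer comparison. Such a partner was annotated for 24 of the 38 genes, and 12 of those were at a shared peak. Over all 1777 genes with such a partner, 76.5% were. Among the known pairs, the Hspd1 and Hspe1 peak was the strongest (11.6-fold, chromosome 1, 55087535 to 55088456, 922 bp, pileup 159). Paics and Ppat, enzymes of purine synthesis, came next (9.79-fold, chromosome 5, 76951040 to 76951785), then Atm and Npat (7.48-fold, chromosome 9, 53536626 to 53537084). Col4a1 and Col4a2, the main collagens of basement membranes, shared a 7.24-fold peak of 713 bp (chromosome 8, 11312408 to 11313120).

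The weaker peaks of known pairs lay below the median of shared peaks. Among these were Tap1 with Psmb9, of antigen processing (4.98-fold), Prkdc with Mcm4, of DNA repair and replication (4.54-fold), Mrps12 with Sars2 of mitochondrial translation (3.75-fold) and Hars with Hars2, the histidyl-tRNA synthetases (3.37-fold). No shared peak was called at Trp53 with Wrap53, Surf1 with Surf2, Tk1 with Afmid, Sirt3 with Psmd13, Psenen with U2af1l4, H2ax with Dpagt1, Peg3 with Usp29, an imprinted pair, or Col4a3 with Col4a4. H2ax, a DNA damage histone gene, had a single peak of its own (5.78-fold). Strand was known here for neither H2ax nor Dpagt1, whose ends lie 820 bp apart. Whether they lie head-to-head was therefore not checked, and the counts of known pairs include them. Gene ends 113 bp apart at Col4a3 and Col4a4 and 84 bp apart at Col4a1 and Col4a2 thus differed in having a called peak. Col4a5 and Col4a6, 1275 bp apart, had none. A missing call in this list does not show closed chromatin, as the depth is unknown.

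Genes of mitochondria, DNA repair and tRNA charging were frequent at shared peaks. Mitochondrial ribosomal proteins were at one in 28 of 77 cases (36.4%, 26.5 to 47.5), led by Mrps16 with Cfap70 (12.1-fold) and Mrpl41 with Pnpla7 (11.2-fold). DNA repair genes were at one in 20 of 56 cases (35.7%, 24.5 to 48.8). Xrcc1, the scaffold of single-strand break repair, with Pinlyp (10.9-fold) and Xpc, a sensor of bulky DNA damage, with Lsm3 (9.77-fold) led them. The respiratory chain and ATP synthase had 27 of 81 genes there (33.3%, 24.0 to 44.1), led by Phf14 with Ndufa4 (12.0-fold) and Atp5e with Prelid3b (10.4-fold), and tRNA synthetases 12 of 37 (32.4%, 19.6 to 48.5), led by Fars2 with Lyrm4 (11.5-fold) and Vars with D17H6S56E-5 (10.1-fold).

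These lists also hold many genes with an annotated head-to-head partner. Such a partner was present for 26 of the 77 mitochondrial ribosomal genes, 20 of the 56 repair genes, 23 of the 81 respiratory genes and 7 of the 37 synthetase genes, against 10.3% of all genes with strand. Of the partnered genes, 20, 13, 18 and 7 were at a shared peak. Over all genes, 76.5% of the 1777 with such a partner were. Any gene-end peak was found at 71.4%, 66.1%, 67.9% and 83.8% of the lists. At the respiratory genes the median fold of the shared peaks was 4.57, and at the synthetases 4.92.

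Other housekeeping lists were nearer to the background of 11.3%, which the intervals of the proteasome and replication lists include. Cytosolic ribosomal proteins were at a shared peak in 16 of 85 cases (18.8%, 11.9 to 28.4) with a median of 4.38-fold, led by Med22 with Rpl7a (11.0-fold) and Card6 with Rpl37 (10.7-fold). Proteasome genes were there in 9 of 48 cases (18.8%, 10.2 to 31.9), led by Psmd8 with Catsperg1 (11.2-fold) and Cep76 with the assembly chaperone gene Psmg2 (9.23-fold). Genes of DNA replication and the cell cycle were there in 9 of 58 cases (15.5%, 8.38 to 26.9), led by Rars2 with Orc3, an origin recognition gene (9.05-fold), and Pold1, a replicative polymerase gene, with Nr1h2 (8.78-fold). Replication-dependent histones, which lie in dense clusters, were there in 13 of 66 cases (19.7%, 11.9 to 30.8) at a median of only 4.20-fold. Any gene-end peak was found at 17 of these 66 (25.8%), below the 43.4% of all protein-coding genes. Of the 19 with an annotated head-to-head partner, 4 were at a shared peak. Over all genes with such a partner, 76.5% were. The strongest histone peak joined H2bc3 and H3c3 (4.78-fold). Histone genes are near-identical copies, and how reads that match several of them were treated is not known here.

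The share of uterine genes at shared peaks could not be told apart from that of all genes. Of 71 genes of receptivity, implantation and decidualization, 3 were at a shared peak (4.23%, 1.45 to 11.7), and 40 (56.3%) had a gene-end peak of some kind, beside 11.3% and 43.4% of all protein-coding genes. The interval of the first share includes 11.3%. Ncoa3, a coactivator of steroid receptors, stood at the strongest (11.1-fold, chromosome 2, 165992432 to 165993186, pileup 133), whose other gene is the predicted LOC115489489. Scnn1a, a subunit of the epithelial sodium channel that takes up uterine fluid, shared an 8.63-fold peak with Ltbr, the lymphotoxin receptor gene (chromosome 6, 125313548 to 125314109). Acvr1, a BMP receptor gene needed for decidualization, shared a 5.42-fold peak with Upp2 (chromosome 2, 58566609 to 58566928).

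The counts of contractile, collagen and Hox genes at shared peaks were small, and their intervals also include 11.3%. Smooth muscle genes had 1 of 19 there, Srf with Cul9 (4.30-fold), and 10 with any gene-end peak. Collagens had 3 of 44: Col4a1, Col4a2 and Col23a1, whose peak with Phykpl was 8.76-fold. Hox genes had 2 of 39, Hoxa5 and Hoxa6, neighbours in a head-to-tail row (5.00-fold, chromosome 6, 52203784 to 52204239), and 13 with any gene-end peak. None of 57 protocadherins and none of 1105 olfactory receptors was at a shared peak, which allows shares of up to 6.31% and 0.346% (upper Wilson limits). Any gene-end peak was found at 2 and 1 of them. Only 2 olfactory receptor genes had a head-to-head partner.

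**Figure D5:**
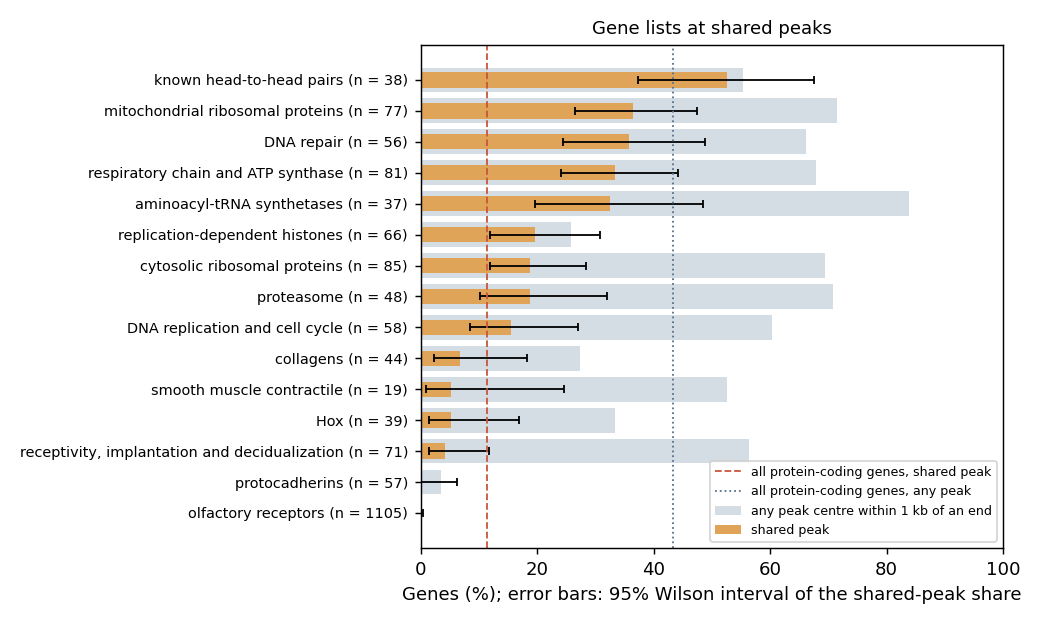
Share of the genes of 15 lists (in %) with a shared peak (orange, with 95% Wilson intervals) and with any gene-end peak (grey). The dashed and dotted lines mark the 11.3% and 43.4% of all protein-coding genes, and lists of mitochondrial, repair and tRNA synthetase genes stand right of the dashed line while the receptivity list (4.23%) stands left of it with an interval that reaches it.

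Ends of long non-coding RNA genes, which can also take part in divergent transcription, were less often close to shared peaks. Such an end lay within 1 kb of 44 shared peaks (3.32%, 2.48 to 4.42), 1076 single peaks (14.1%, 13.3 to 14.9) and 457 peaks elsewhere (13.3%, 12.2 to 14.5). A share of the single peaks thus lies at a pair of genes as well, with a partner that does not code for protein.

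The limit of 1 kb cuts through a continuous range of distances. Just inside it, the second gene lay 995.5 bp from the centre at Exosc10 with Mtor (5.25-fold), 995 bp at Ash1l with Dap3 (6.29-fold) and 994.5 bp at Polr1d with Lnx2 (7.57-fold). Just outside, it lay 1001.5 bp away at Zfp668 with Zfp646 (7.23-fold) and 1002.5 bp at Nol9 with Tas1r1 (9.04-fold). The folds on both sides of the limit were of the same order.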

How the data were processed

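The deposited peak table names no sample and was taken as 1 list of the whole series, with no mean or spread over the 3 samples. Per the submitters' processing notes, FastQC, Bowtie2, HOMER and MACS2 were used (no versions) with build GRCm38.p5. For the call threshold, an input control and pooling, the answer is not given in the sources used here. Columns of pileup (a coverage signal), fold enrichment (a ratio), −log10 p-value and −log10 q-value were deposited for each peak, per the file headers. Unnamed columns (6) were empty. The growth protocol speaks of 3 mice and the series design of RNA from 4.

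Local background was computed as (pileup + 1) / fold − 1. A peak belonged to a gene when its centre lay within 1 kb of an annotated end, among 21523 protein-coding genes on 20 chromosomes. Genes starting below 3 Mb were left out, because such positions are those of scaffolds. Strand and promoter bases came from the RefSeq promoter table, matched by gene ID for 17274 genes (80.3%), none of them on chromosome 18, and for 2036 of 2430 genes at shared peaks (83.8%). The start of a promoter window, used for motifs and CpG content, can differ from the annotated gene end used for distances. Medians carry 95% binomial intervals and shares 95% Wilson intervals. The limits of a difference set the low bound of one against the high bound of the other. A head-to-head pair was counted where both nearest ends were starts on opposite strands pointing away from each other or overlapping at those starts.

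The members and the 15 gene lists were chosen with earlier results of these data known. By rule, the text names the 10 strongest, 5 weakest and 5 widest shared peaks, those nearest the 1 kb limit, all at known pairs and receptivity genes, and the 2 strongest of every other list. Gene pairs with 3 peaks, peaks at 3 genes and the Cd4 peak were chosen after their values were seen. Some of the peaks that the rule selects are not reported here. Sequences for 4 of the 6 pairs that the rule selects are shown. Procedures were tested on simulated data. Python 3.11.15, pandas 2.3.3, numpy 2.4.6 and scipy 1.17.1 were used.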

Additional observations from a re-analysis of the deposited data

How the results depend on the processing

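Of 8 alternatives planned for each of 6 results, those below moved a value beyond its interval, or a count by more than 1.5 times. Keeping the 50% of peaks with the highest fold gave 687 shared peaks, 14.1% of gene-end peaks, and 10.7 percentage points for the excess of gene ends with a peak among those with a close neighbour over lone ends. The difference in median fold turned to 0.342 there. Keeping the 50% with the highest −log10 q gave 693 shared peaks, an excess of 11.1 points and a fold difference of 0.253. Both differences had limits that included 0. Both sets hold fewer peaks by construction, and the cause of the turned sign was not tested. The shared percentage was 12.0% with windows of 500 bp, 18.2% with 2 kb, 15.6% with any overlap of peak and window, 13.3% without predicted and clone-named genes and 13.9% with overlapping genes joined. The excess was 23.2 points at 500 bp and 18.4 without predicted genes. The head-to-head share was 83.8% at 500 bp, 64.6% at 2 kb and 72.5% with any overlap. The difference in median width stayed between −20 and −7 bp in all 8. An alternative added after seeing the data, head-to-head shared against single peaks at a start, gave −0.0640 in fold and 0 bp in width. Using the summit in place of the centre moved none of the results. Leaving out a mouse was not possible, because the table names no sample. No paired analysis was possible because there is 1 group. Depth is unknown, so a gene end without a called peak may hold open chromatin below the call threshold.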
